A study of Mus musculus with 7 samples.

Results

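The column names of the expression table end in a number, which is 18 in 2 of the 7 libraries and 21 or 22 in the other 5. The 2 libraries numbered 18, 1 from each genotype, were compared across all genes with the 5 numbered 21 or 22, of which 3 were Smchd1-null and 2 wild-type. What the last number stands for is not given in the sources used here, so it is used only as a number. The series profiled RNA from female FVB/N mouse embryos at embryonic day 9.5, wild-type (Smchd1 +/+) or homozygous for the MommeD1 allele of Smchd1 (Smchd1 MommeD1/MommeD1, which the submitters call null), with no other treatment. The product of Smchd1 is a chromatin protein related to the cohesins and condensins, known for silencing on the inactive X chromosome. The tissue was the piece of the embryo lying behind its last visible somite by about the length of 1 somite, labelled postsomitic mesoderm in the sample records and presomitic mesoderm in the title. The libraries are named here by genotype and last number: null 18, null 21, null 22a, null 22b, WT 18, WT 21 and WT 22.

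Reads in listed genes ran from 19622596 in WT 21 to 23847381 in null 21, with 23078626 in null 18 and 20394567 in WT 18. T, Tbx6 and Msgn1, which mark this tissue, were read in every library. Reads of Smchd1 numbered 1922 to 2372 in each null library and 5572 to 6552 in each wild-type one, so each library matched its genotype label by this gene. WT 18 stood apart from the other 6 libraries on the first principal component, which held 49.9% of the variance, at -39.4 against -2.06 to 15.6. Null 18, at -1.98, lay beside WT 22 (-2.06) but below the other null libraries, at 8.89 to 15.6. Each library numbered 18 was thus the lowest of its genotype on this component. A read fell in 19280 genes in WT 18 and in 19841 to 20183 in the others. For that count the exact permutation p within genotype, two-sided, was 0.167 where the smallest possible over 12 placements was 0.0833 (0.5 after adjustment over 3 measures), and for the share of reads in listed genes and for the X-linked minus autosomal mean it was 0.583. The labels do not say whether libraries are separate embryos, so the p-values speak only of the spread among these 7. The tissue was profiled in bulk, so fewer cells of a type and less RNA per cell cannot be told apart.

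The tissue at the tail end of the embryo holds progenitors that add mesoderm and spinal cord as the body axis lengthens, and it is kept going by Wnt and FGF ligands while Cyp26 enzymes clear retinoic acid from it. Hox genes lie in 4 clusters and are switched on there in the order in which they lie, the low-numbered paralogue groups first and the highest-numbered last. Their products give the vertebrae, limbs and tail their position along the body.

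The libraries numbered 18 held fewer reads of 4 Hox genes of paralogue groups 10 to 12 (Hoxd10, Hoxa11, Hoxc11 and Hoxd12), of Hotair beside them and of a further set of genes outside the clusters. Hoxc12 was lower too but is set apart below. No gene of group 13, the last in the clusters, passed the test. With genotype in the model, 25 of 14212 genes tested were lower in the libraries numbered 18 (0.176%) and none was higher (0%), by limma with Benjamini-Hochberg adjustment at 0.05. Without the adjustment, a p under 0.05 was reached by 1333 genes in the lower direction (9.38%) and by 1157 in the higher one (8.14%). In all 25 genes both libraries numbered 18 lay below all 5 others, a pattern found in 1037 of all genes tested (7.3%), while the reverse was found in 1259 (8.86%). Within genotype, each library numbered 18 lay below all others in 1966 genes (13.8%), above them in 2786 (19.6%) and on opposite sides in 1535 (10.8%). The adjusted p-values of the 25 ran only from 0.0418 to 0.0459. The count was 0 without null 22a, WT 22, WT 18 or WT 21, 10 without null 22b, 57 lower and 6 higher without null 21, and 151 lower without null 18. On the deposited scale, without centring, 437 genes were lower and 17 higher, and with voom on recovered reads none was called. All 25 genes lay below 0 in every setting in which they were tested. With a library left out, or against 21 only or 22 only, that sign was all but fixed. In all 25 both libraries numbered 18 lay below all 5 others, so the sign is no separate support. In 3 of them, Hoxc12, Gxylt2 and Cpt1a, both libraries numbered 18 lay at or below the filter of 1 read per 1000000, so these 3 were tested only because the other libraries were higher, and their calls are not read as support. Over all genes tested 430 were of that kind, 412 of them below 0. In each of the other 22 called genes at least 1 library numbered 18 lay above the filter. In Hoxd12, Hotair, Pax9, Fstl4 and Cspg4 it was null 18 alone, with WT 18 below the filter. As the filter asks for 2 libraries, these genes also passed it only with the help of libraries numbered 21 or 22.

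The first of these genes lie towards the 5′ end of the HoxC cluster. Hoxc12 (chr15:102936757-102938609, mm10), a homeodomain transcription factor, had 3 reads in null 18 and 1 in WT 18, against 169 in null 21, 268 in null 22a, 82 in null 22b, 25 in WT 21 and 45 in WT 22. Summed over both genotypes, the 4 reads of the libraries numbered 18 against 589 in the others made a ratio 56.8-fold lower. Its 95% exact interval, from 22.1 to 209-fold, covers counting error only. The ratio has no term for genotype, and the null libraries numbered 21 or 22 held more reads of Hoxc12 than the wild-type ones. Both libraries numbered 18 were near 0, whichever the genotype. The fitted log2 change of Hoxc12 was -5.33, given as a description since the gene passed the filter only through libraries numbered 21 or 22.

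Hotair (chr15:102944062-102948420), a long noncoding RNA transcribed from between Hoxc12 and Hoxc11, had 101 reads in null 18, against 727 in null 21, 969 in null 22a and 547 in null 22b. In wild-type it had 7 reads in WT 18, against 129 in WT 21 and 230 in WT 22. Each library numbered 18 lay below every other library, and the log2 change was -3.61 (SE 0.39, limma adjusted p 0.0459). Hoxc11 (chr15:102954427-102957708) had 635 reads in null 18, against 1691, 2127 and 1616 in null 21, 22a and 22b. It had 179 in WT 18, against 1002 in WT 21 and 1238 in WT 22. Its log2 change was -1.96 (SE 0.22, adjusted p 0.0459 by limma), with no overlap between the 2 sets.

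In the HoxD cluster, Hoxd12 (chr2:74674929-74677706) had 100 reads in null 18, against 1120, 1596 and 829 in null 21, 22a and 22b. In wild-type it had 4 reads in WT 18, against 220 in WT 21 and 329 in WT 22. The wild-type library numbered 18 was thus almost without Hoxd12 reads, and the null one held fewer than any library numbered 21 or 22. The log2 change was -4.64 (SE 0.51, limma adjusted p 0.0459), made up of -5.95 in wild-type and -3.48 in null. Hoxd10 (chr2:74691090-74695106), which gives position in the limb and lower spinal cord, changed less. It had 1836 reads in null 18 against 2569 to 3329 in the other null libraries, and 1277 in WT 18 against 2077 and 2367. Its log2 difference was -0.68 in each genotype (adjusted p 0.0459, limma). The row Gm20440, also called, spans Hoxd11 and Hoxd10 on the same strand, so its reads and theirs cannot be told apart.

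In the HoxA cluster, Hoxa11 (chr6:52242108-52246214) had 1477 reads in null 18, against 2624, 3037 and 2475 in null 21, 22a and 22b. WT 18 had 653 reads of it, against 1880 in WT 21 and 2105 in WT 22. The log2 change was -1.15 (SE 0.14, limma adjusted p 0.0459). The antisense row Hoxa11as, with a log2 change of -1.46, overlaps Hoxa11 on the other strand. Whether reads were counted by strand is not given in the sources used here, so this pair is not 2 separate measurements.

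**Figure D1:**
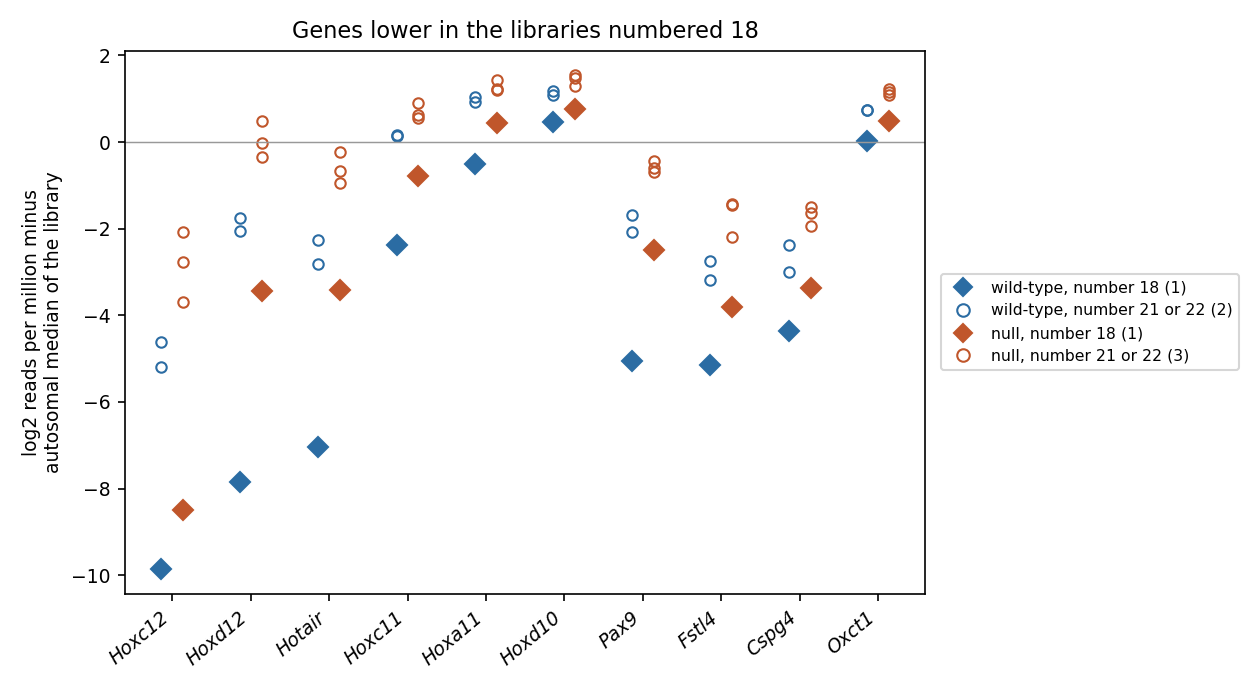
Centred log2 RPM (vertical axis; log2 of reads per 1000000 as deposited, minus the autosomal median of the library) of 10 of the 25 genes lower in the libraries numbered 18, 1 symbol per library. Filled diamonds are the 2 libraries numbered 18 and open circles the 5 numbered 21 or 22, blue for wild-type and orange for null; within each genotype the diamond lies below all circles in all 10 genes.

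Of the 4 Hox genes called with a library numbered 18 above the filter, 3 have an entry in RefSeq's promoter table (build GRCm38.p6). The 250 bases before the start site given there are printed because these are called genes of 2 clusters. The start in that table is not the end of the gene's span in the deposited table: for Hoxd10 and Hoxa11 the whole window lies inside that span, and for Hoxd12 the window runs past its first base. Capitals mark CpG dinucleotides, which are dense at the promoters of many developmental regulators. Each is written 5′ to 3′ on the strand of the gene, at chr2:74674763-74675012 (+) for Hoxd12, chr2:74691641-74691890 (+) for Hoxd10 and chr6:52245811-52246060 (-) for Hoxa11.
Hoxd12: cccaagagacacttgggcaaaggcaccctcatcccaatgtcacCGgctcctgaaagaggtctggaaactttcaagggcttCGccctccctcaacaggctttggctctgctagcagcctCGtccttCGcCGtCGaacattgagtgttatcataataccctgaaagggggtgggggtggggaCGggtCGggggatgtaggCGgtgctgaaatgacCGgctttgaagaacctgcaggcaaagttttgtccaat
Hoxd10: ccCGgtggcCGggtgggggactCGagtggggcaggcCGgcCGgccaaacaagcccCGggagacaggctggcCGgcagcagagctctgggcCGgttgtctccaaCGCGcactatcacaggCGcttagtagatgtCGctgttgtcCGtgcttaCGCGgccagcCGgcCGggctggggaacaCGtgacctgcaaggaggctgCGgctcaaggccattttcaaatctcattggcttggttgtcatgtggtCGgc
Hoxa11: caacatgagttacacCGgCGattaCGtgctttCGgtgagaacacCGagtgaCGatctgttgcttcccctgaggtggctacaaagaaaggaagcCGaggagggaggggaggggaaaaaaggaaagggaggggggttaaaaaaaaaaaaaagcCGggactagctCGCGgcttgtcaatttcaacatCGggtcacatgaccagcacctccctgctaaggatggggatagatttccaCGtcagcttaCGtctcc
The windows hold 10 CpG in Hoxd12, 20 in Hoxd10 and 13 in Hoxa11, beside a median of 6.0 over 32851 promoter windows of this length and of 12.5 over the 24 of Hox genes. The letters TTTATG, one form of the motif that caudal-type Cdx factors bind, were searched on both strands (CATAAA on the other), with no other motif searched. They occur in none of the 3 windows, in 5 of the 24 Hox windows and in 10.8% of all windows. This says only that these letters are not in the 250 bases of the 3 genes. Hoxc11 and Hoxc12 are not shown.

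Read along the clusters, the Hox genes parted beyond group 9, with group 10 mixed. The 27 genes of groups 1 to 9 had log2 changes from -0.12 to 0.33 with a median of 0.13, beside 0.03 over all genes tested, and none was called. The median change was -0.38 in group 10, -1.54 in group 11 and -1.99 in group 13 (Hoxc13 included), while group 12 held Hoxd12 and Hoxc12 only. In group 10, Hoxd10 was called (-0.68) and Hoxa10 was not (-0.38, limma adjusted p 0.116). Hoxc10, at -0.03 (limma adjusted p 0.851), lay inside the range of groups 1 to 9. Of the 9 genes of groups 11 to 13, 8 passed the filter, Hoxd12 with WT 18 below it. Hoxc12 and Hoxc13 passed it through libraries numbered 21 or 22 only. Apart from these 2, all 9 genes tested in groups 10 to 13 lay below 0, beside 42.1% of all genes tested. Of the 9, 4 were called, beside 0.176% of all. Hoxd12, among the 4 called, passed the filter only with the help of libraries numbered 21 or 22. Hoxb13, with 1 to 9 reads in every library, did not pass. Together the 9 genes of groups 11 to 13 made up 253 of every 1000000 listed reads (the scale of all summed levels below) in null 18 and 85.1 in WT 18. The other null libraries held 505 to 623 and the other wild-type libraries 384 to 389. The 2 libraries numbered 18 were the 2 lowest.

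Hoxd11, with 2159 reads in null 18 and 602 in WT 18 against 2743 to 4881 elsewhere, did not overlap but missed the threshold (log2 change -1.54, limma adjusted p 0.0709). Hoxd13, at the end of its cluster, had 1004 reads in null 18 and 125 in WT 18, against 1265 to 1997 elsewhere (-1.99, adjusted p 0.146 by limma). Hoxc13 had 51 and 3 reads, against 55 to 226 (-2.88, adjusted p 0.120 by limma). Hoxa13 was the 1 member whose groups overlapped, with 409 reads in null 18 inside the 302 to 788 of the other null libraries and 166 in WT 18 (limma adjusted p 0.327). Among the other null libraries, null 21 lay below both null 22a and null 22b in 4 of the 8 tested genes of groups 11 to 13 by centred log2 (Hoxa11, Hoxa13, Hoxc11 and Hoxd13) and between them in the other 4. WT 21 lay below WT 22 in 5 of the 8 and above it in 3. With 1 library numbered 21 per genotype these orders were not tested.

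**Figure D2:**
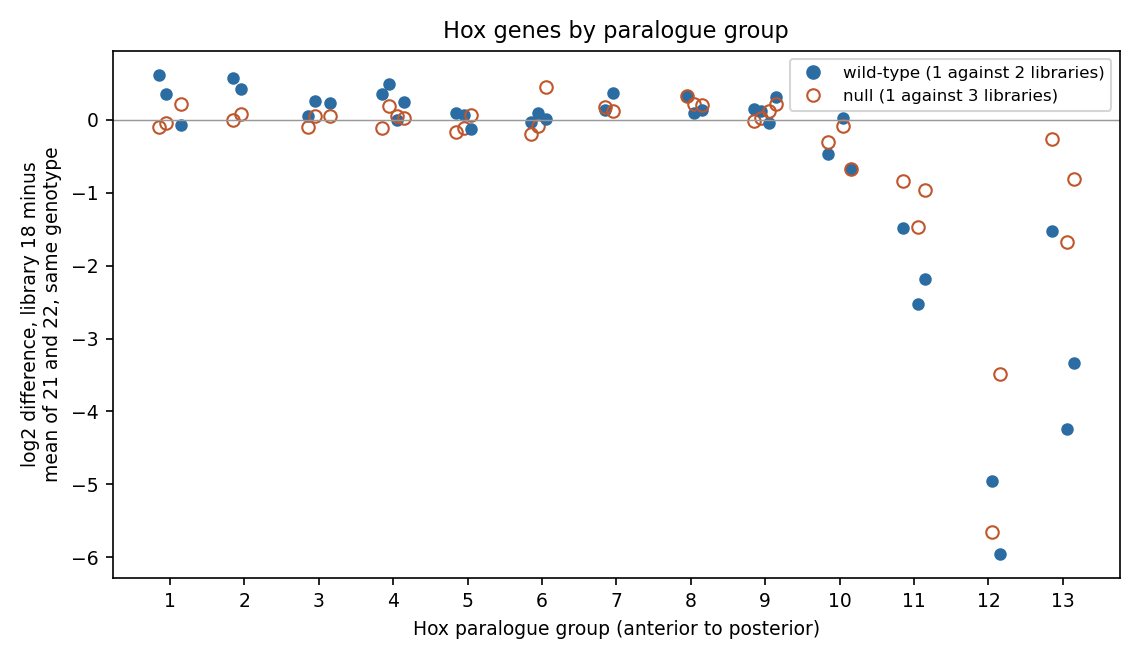
Log2 difference between the library numbered 18 and the mean of those numbered 21 or 22 of the same genotype (vertical axis), for each Hox gene tested, by paralogue group from 1 to 13 (horizontal axis). Filled blue points are wild-type (1 library against 2) and open orange points null (1 against 3). The points lie between -0.20 and 0.62 through group 9, from -0.68 to 0.03 in group 10 and below 0 from group 11 on.

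Outside the clusters, the called genes had varied known roles. Pax9 (chr12:56691767-56712822), a paired-box transcription factor of the sclerotome and the pharyngeal pouches, had 193 reads in null 18, against 753, 836 and 647 in null 21, 22a and 22b. It had 28 in WT 18, against 284 in WT 21 and 264 in WT 22, so both libraries numbered 18 lay lowest. Its log2 change was -2.50 (SE 0.27, limma adjusted p 0.0459). Slc25a21, which overlaps Pax9 on the other strand, was also called in the wild-type comparison described below. In the list of sclerotome and muscle markers, 4 of the 10 genes passed the filter, Pax9 among them. All 4 lay below 0 (median -0.33), beside 42.1% of all genes tested. Pax1 had 0 to 2 reads in every library.

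Fstl4 (chr11:52764634-53188538), a secreted follistatin-like protein, had 78 reads in null 18 and 26 in WT 18, against 123 to 418 in the others. Its log2 difference was alike in size in both genotypes, -2.19 in wild-type and -2.10 in null (SE 0.39 and 0.37). Cspg4 (chr9:56865104-56899870), the NG2 proteoglycan, had 105 reads in null 18 and 45 in WT 18, against 115 to 372, a difference of -1.68 in each genotype. Cntn2, an axonal adhesion protein, had 293 and 68 reads. WT 18 lay below WT 21 (254) and WT 22 (322), and null 18 below the 557 to 779 of the other null libraries. Nfib (log2 change -1.24) and Ebf2 (-0.83) encode transcription factors, Nptx2 (-0.85) a neuronal pentraxin, Asap3 an Arf GTPase-activating protein and Myo15b (-1.23) a myosin-like protein. All 5 were called with limma adjusted p 0.0459.

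The smallest adjusted p, 0.0418, belonged to Oxct1 (chr15), the mitochondrial enzyme that lets cells use ketone bodies. Oxct1 had 1522 reads in null 18, against 2428, 2628 and 2350 in null 21, 22a and 22b, and 944 in WT 18, against 1523 in WT 21 and 1859 in WT 22. The log2 change was -0.69 with an SE of 0.05, the difference being -0.72 in wild-type and -0.67 in null. Cpt1a, which admits long-chain fatty acids to mitochondria, had 61 reads in null 18 and 31 in WT 18, against 86 to 245 (log2 change -1.58), and is 1 of the 3 genes that passed the filter only through the other libraries. These 2 and the remaining 6 of the 25 lie outside the naming rule and were picked out after their values were seen. The 6 were Gxylt2 (-1.48), a glycosyltransferase that also passed the filter only through the other libraries, the X-linked row 2610018G03Rik (-0.72), St6galnac4 (-0.66), a sialyltransferase, Agtrap (-0.52), a protein that binds the angiotensin receptor, Dip2a (-0.42) and Antxr1 (-0.40), an anthrax toxin receptor.

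No gene was called higher, and the 5 with the smallest p are given without a call. Prtg, protogenin, a surface receptor of early embryos, had 5696 reads in null 18 against 3575 to 3811 in the other null libraries. In wild-type it had 5471 in WT 18, 3562 in WT 21 and 5211 in WT 22, and WT 18 was the highest of its genotype. The log2 change of Prtg was 0.57 (SE 0.08, limma adjusted p 0.0662). Nr6a1, a nuclear receptor known for its part in trunk length, had 2849 reads in null 18 and 2877 in WT 18, against 1084 to 2155 (0.93, SE 0.16, limma adjusted p 0.101). F11r, a tight-junction adhesion molecule, changed by 0.40, Btaf1, a regulator of the TATA-binding protein, by 0.23 and Heatr1, a nucleolar protein, by 0.21, with limma adjusted p-values from 0.101 to 0.108.

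The heterochronic list holds Lin28a, Lin28b and their partners in the passage from trunk to tail. Of its 11 genes, 9 lay above 0, beside 8227 of all 14212 genes tested, and none was called. The median of the list was 0.13, beside 0.03 over all genes tested. It was 0.01 on the deposited scale without centring, where the median of all genes was -0.09. Lin28a changed by 0.14 (adjusted p 0.294) and Lin28b by 0.13 (adjusted p 0.212), both by limma. Gdf11, the ligand of the list, known for the passage from trunk to tail, lay below 0 at -0.40 (limma adjusted p 0.224).

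The 2 genotypes were then taken apart, each library numbered 18 being set against its own genotype, with the spread shared over all 7 libraries. In wild-type, 143 genes were lower in WT 18 (1.01%) and none higher (0%), with 1496 (10.5%) lower and 928 (6.53%) higher at an unadjusted p under 0.05. In null, no gene passed in either direction (0%), while 619 (4.36%) lay lower and 422 (2.97%) higher at an unadjusted p under 0.05. Each comparison rests on 1 library numbered 18, which is assumed to vary like the others. No gene passed the test of the difference between genotypes, and 951 (6.69%) had an unadjusted p under 0.05, so a call in wild-type alone is not shown to be particular to it. The wild-type count ran from 2 without WT 21 to 425 without null 22b, and was 27 without null 22a, 324 without null 21 and 16 without WT 22. Without null 22b, 13 genes were called lower in null.

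Of the 143 genes called in wild-type, 133 (93.0%) lay below 0 in null as well, beside 44.6% of all genes tested, and in 112 null 18 was the lowest of the null libraries, beside 24.6% of all. Their median difference was -1.86 in wild-type and -0.41 in null. The 143 hold 12 genes with both libraries numbered 18 at or below the filter, tested only because the other libraries were higher. The agreement in null was not counted without them. The lists shared 12 genes, of 143 in one and 25 in the other. Over all 14212 genes the 2 differences, which share no library, had a Pearson r of 0.34 (Spearman 0.33) and the same sign in 65.5%, with an SD of 0.53 in wild-type and 0.30 in null. Genes are not independent replicates, and neighbouring genes and cell types tie them together.

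**Figure D3:**
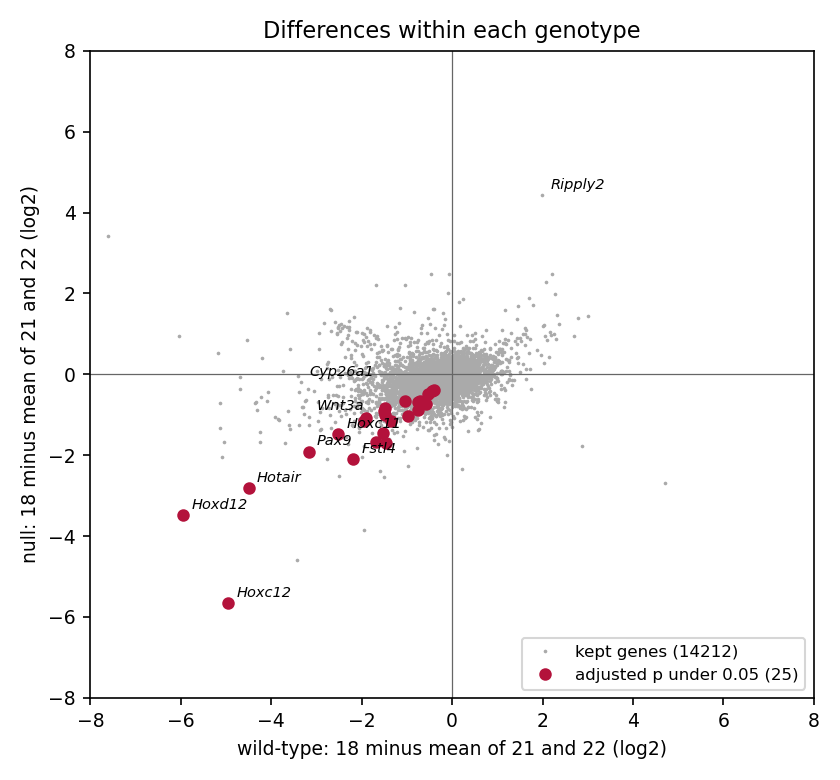
Log2 difference between the library numbered 18 and the mean of those numbered 21 or 22 in wild-type (horizontal axis) and in null (vertical axis), 1 point per gene tested (14212). Red points are the 25 genes called with genotype in the model and all lie below 0 on both axes; Cyp26a1 and Wnt3a lie far to the left and near 0 on the null axis.

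Genes of the tail-end progenitors made up part of the wild-type set. Cyp26a1, the enzyme that breaks down retinoic acid in the tail, had 200 reads in WT 18, against 2391 in WT 21 and 2033 in WT 22. In null it had 2497 reads in null 18, against 2992, 3100 and 2681 in null 21, 22a and 22b. WT 18 was thus far below the other 6 libraries, which held 2033 to 3100. The difference was -3.34 in wild-type (limma adjusted p 0.0031) and -0.19 in null, and the test of the difference between genotypes gave an unadjusted limma p of 1.3e-05 and an adjusted p of 0.0924. Wnt3a, the Wnt ligand of the progenitors, had 118 reads in WT 18, against 1243 and 1102 in WT 21 and WT 22. It had 1239 in null 18, against 1472 to 1752 in the other null libraries, with differences of -3.19 in wild-type and -0.36 in null.

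Further wild-type calls were T (Brachyury, the founding mesoderm factor), with a difference of -0.94 in wild-type and -0.29 in null, and Rspo3, a secreted enhancer of Wnt signals, with -0.84 and -0.28. Fgf3 fell by 1.03 in wild-type and was -0.62 in null. Cyp26c1, a second retinoic acid enzyme, had 12 reads in WT 18 against 242 and 287, and 278 in null 18 against 358 to 565. Tbx3, a T-box factor, had 440 reads in WT 18 against 2113 and 1948, and 1868 in null 18 against 2361 to 2864. In wild-type 7 of the 8 tested Hox genes of groups 11 to 13 were called, Hoxa13 being the exception, or 5 of 6 without Hoxc12 and Hoxc13. Of all genes tested, 1.01% were called in wild-type. The 5 still hold Hoxd12, with WT 18 below the filter. In 12 of the 143 genes called in wild-type, Hoxc12 and Hoxc13 among them, both libraries numbered 18 lay at or below the filter.

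The ligands Fgf4 and Fgf8 were not called in any of these comparisons. Fgf4 had 38 reads in null 18 and 6 in WT 18, against 107 to 238 in the other null and 44 to 45 in the other wild-type libraries, with no overlap and a log2 change of -2.41 (limma adjusted p 0.0662). Fgf4 passed the filter only through libraries numbered 21 or 22. Fgf8 had 394 reads in WT 18 against 1248 and 1124, and 1220 in null 18 beside 1220 in null 22b and 1776 to 1824 in the others (log2 change -0.87, limma adjusted p 0.182). Over the whole list of 10 neuromesodermal progenitor regulators, 7 lay below 0, beside 42.1% of all genes tested. None was called with genotype in the model, and 3 were called in wild-type, beside 1.01% of all. The median of the list was -1.01 in wild-type and -0.24 in null. Sox2, Nkx1-2 and Sp8 were the 3 members above 0.

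The same libraries gave no call in the Wnt list of 17 genes (12 below 0, where 42.1% of all genes tested were; median -0.16), the FGF and ERK list of 16 (10 below 0, median -0.15) or the retinoic acid list of 14 (10 below 0, median -0.08). None of the 14 genes of the BMP list was called (11 below 0, median -0.12), nor any of the 3 Cdx factors (median -0.00), the homeobox activators of Hox genes. In wild-type 3, 2, 2, 1 and 0 members of these 5 lists were called, all lower, beside 1.01% of all genes tested. In the Notch oscillator list 11 of 17 lay above 0, where 8227 of all 14212 genes tested did. Its median was 0.03, with no call.

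**Figure D4:**
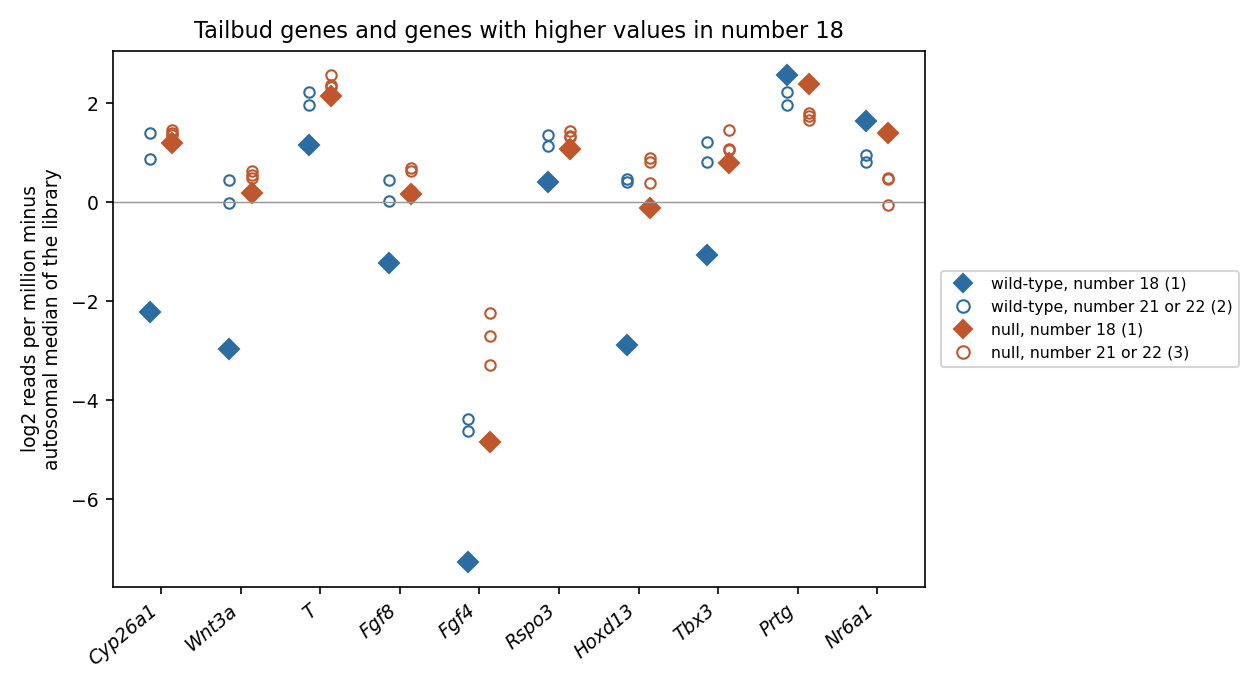
Centred log2 RPM (vertical axis) of 8 genes of the tail end and of Prtg and Nr6a1, 1 symbol per library, with symbols as in the plot of called genes. In Cyp26a1 and Wnt3a the wild-type diamond lies far below all other libraries while the null diamond lies just under the other null libraries; in Prtg and Nr6a1 both diamonds are the highest of their genotype.

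Somite and neural genes had higher values in WT 18 by their medians, with wide spread among the libraries numbered 21 or 22. The determination-front and somite list holds the factors that turn presomitic cells into somites. Of its 11 tested genes, 8 lay above 0 (median 0.53), beside 8227 of all 14212 genes tested. Pax9 was called lower, as were 0.176% of all genes tested, and none was called higher. Ripply2, a repressor that closes the presomitic state, had 311 reads in null 18 against 6 to 59 in the other null libraries, and 113 in WT 18 against 17 in WT 21 and 56 in WT 22 (log2 change 3.28, SE 0.97, limma adjusted p 0.179). Meox1, a somite homeobox factor, had 3272 reads in WT 18 but also 2076 in null 21, against 1352 in null 18. Mesp2 had 62 and 124 reads in the libraries numbered 18, inside the range of 3 to 184 in the others. Foxc2 passed, with a log2 change of 1.06, only without null 21 (limma adjusted p 0.0399). In the presomitic mesoderm list, 7 of 12 lay below 0 (median -0.14) with no call.

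Of the 20 genes of the neural list 13 were tested and none was called. The list had 10 above 0 (median 0.67), beside 8227 of all 14212 genes tested. Its summed level was 629 in WT 18 and 428 in null 18, against 328 to 457 in the others. Irx3, a neural tube homeobox factor, had 1951 reads in WT 18 and 1296 in null 18, against 561 to 1240 (log2 change 0.92, limma adjusted p 0.124). Of the genes for neuron formation in the list, Neurog1, Neurog3 and Neurod1 had 0 to 16 reads in every library and Neurog2 had 13 to 254. The part of these shifts in the calls above was not tested.

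Markers of other cell types lay farther from 0 in WT 18 than in null 18 by their medians. All 16 endothelial genes lay below 0, beside 42.1% of all genes tested (median -0.38, or -0.75 in wild-type and -0.14 in null). In 5 of the 16 both libraries numbered 18 lay below all others, beside 7.3% of all, and none was called with genotype in the model. Their summed level was 689 in WT 18 and 974 in null 18, against 942 to 1304 in the others. Emcn, a vessel sialomucin, had 497 reads in WT 18 and 767 in null 18, against 801 to 1176 (log2 change -0.64, limma adjusted p 0.0851), and Flt1 and Sox7 were called in wild-type. All 13 surface ectoderm genes lay below 0 (median -0.34), at a summed level of 304 in WT 18 and 450 in null 18 against 425 to 491. The hindgut list had 8 of 11 below 0 (median -0.23), at 364 and 493 against 420 to 556, with Cdh1 called in wild-type. The notochord list had 8 of 10 below 0 (median -0.08), at 253 and 329 against 316 to 364.

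The primitive erythroid list went opposite ways, with a median of -1.50 in wild-type and 0.65 in null, at 258 in WT 18 and 534 in null 18 against 338 to 738. Globin reads were present in every library. The lateral plate and intermediate mesoderm list was also split, at -0.44 in wild-type and 0.34 in null, but the null median was 0.16 with a floor of 3 reads. Tbx5, a forelimb and heart factor, had 2 reads in WT 18, 15 in null 18 and 0 to 81 elsewhere, while Lhx1, an intermediate mesoderm factor, had 381 and 309 reads against 108 to 216 (log2 change 1.27, limma adjusted p 0.124). With WT 18 left out, each list's median is its null value, and the part of these cell types in the calls was not tested.

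**Figure D5:**
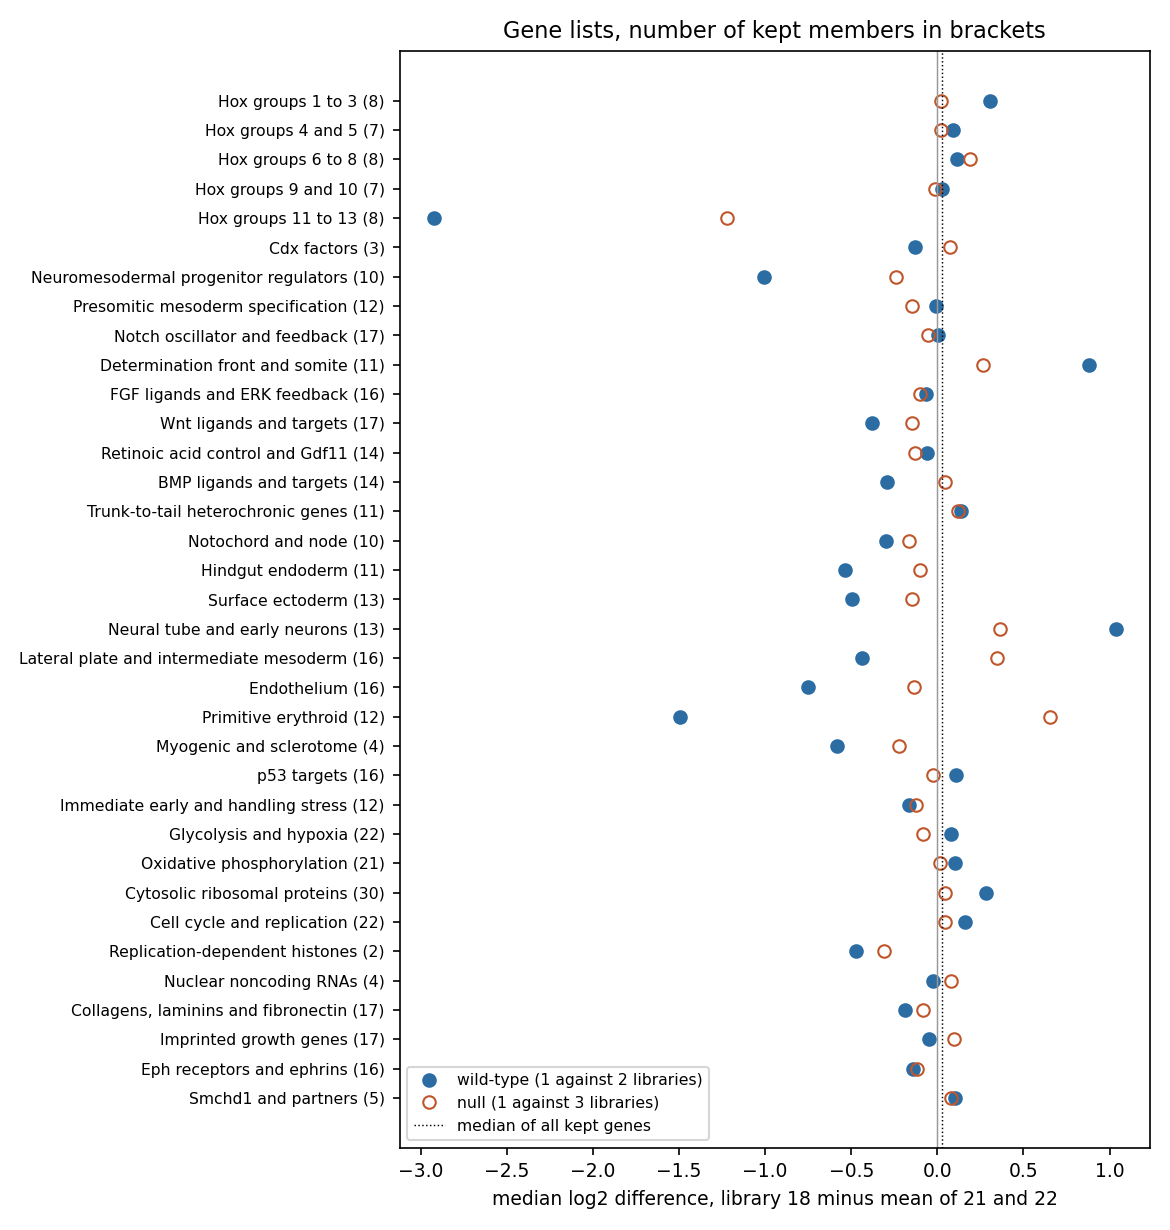
Median log2 difference between the library numbered 18 and the others of its genotype (horizontal axis) for each gene list (vertical axis, number of tested genes in brackets), filled blue for wild-type (1 library against 2) and open orange for null (1 against 3). The dotted line is the median of all genes tested, with genotype in the model, at 0.03; Hox groups 11 to 13 lie farthest to the left in both genotypes, and the erythroid list lies on opposite sides.

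The last number also bears on the comparison of genotypes, since 1 of 3 wild-type and 1 of 4 null libraries were numbered 18. With the number in the model, 12 genes were higher in null (0.0844%) and 1, Smchd1, lower (0.00704%), against 7 (0.0493%) and 1 (0.00704%) without it, by limma. The genes called only with it were Usp11, Ikbkg, Npr2, 4930433N12Rik and Oxct1, picked out after their values were seen. Oxct1, lower in the libraries numbered 18, was higher in null by 0.43 (SE 0.05, adjusted p 0.0472, limma). The tested Hox genes of groups 11 to 13 were 0.18 to 2.67 higher in null with the number in the model, with a smallest limma adjusted p of 0.0845. Neither Smchd1 (log2 change 0.09, limma adjusted p 0.551) nor Xist (0.02, limma adjusted p 0.778) was called between the libraries numbered 18 and the others; on the deposited scale the values were -0.03 and -0.10.

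The column names carry a first number too, and its meaning is not given in the sources used here. WT 18 shares it with WT 21 and null 21, null 22a shares it with null 22b, and null 18 and WT 22 each stand alone. Within the first number of WT 18, all 25 genes were lower in WT 18 than in WT 21. That outcome was fixed by the choice of genes, since in each of them WT 18 lay below every library numbered 21 or 22. It is thus no separate check on the first number. Null 18 has no other library of its first number, so no comparison within a first number can be had for it. With the first number as a block, the fitted change of each gene was WT 18 minus WT 21, with a median of 0.03 over all genes tested. No other library entered that change, null 18 included, so no count of calls is given for it.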

How the data were processed

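RNA-seq was deposited for 3 wild-type and 4 null libraries, although the design text counts 3 null. The submitters' processing notes name TopHat2 2.0.12, bcl2fastq, edgeR and build mm10; for the counting of reads, with its strand and annotation, the tool is not given in the sources used here. Log2 RPM values (reads per 1000000) were deposited by the authors for 25965 genes in 7 columns. Since the column names show the genotype and not the sample, columns were assigned by genotype. All checked values under 1000 reads were whole multiples of 1 read within 0.01, which gave the reads printed in the text, and a gene with no read is listed at 0.9 read. A count of 0 allows 0.044 to 0.0507 RPM at 3 reads, for counting error only. Libraries of a genotype differed by more than sampling noise (chi-square per degree of freedom 7.97 to 21.8).

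The filter kept genes whose log2 value exceeded 0 in 2 or more libraries (14212, of them 13707 autosomal and 504 X-linked), and each library was centred on its autosomal median. Differences by last number were fitted in limma 3.58.1 (R 4.3.3), with genotype as a term and a prior trend, two-sided, adjusted by Benjamini-Hochberg with a threshold of 0.05 (4 residual degrees of freedom). A second model with the interaction gave each genotype's own difference (3 degrees). The fits were tested on simulated data. Gene lists (35) are described by counts and medians only. Named genes were up to 15 per direction by fold change past the threshold, with mean log2 of at least 1 and the library numbered 18 outside its genotype's range in both genotypes, or the 5 with the smallest p where fewer passed. From each list up to 8 passing members or the 2 with the smallest p were named, and Smchd1 and Xist always; list members called in wild-type and those given to describe a list were added after their values were seen. The members, lists and tests were chosen with earlier results of these data known. Alternatives were other scalings, filters, priors, codings of the number, voom and leaving out each library; a floor of 3 reads and a block on the first number were added after seeing the data. Tables and figures used Python 3.11.15, pandas 2.3.3, numpy 2.4.6 and matplotlib 3.10.9.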

Additional observations from a re-analysis of the deposited data

Results flagged for a closer look

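Among 186 sets of 4 null libraries or of 5 libraries numbered 21 or 22, one for each gene the tables name and each of 3 library measures, 7 held a library set apart from the rest by most of the whole range of the set; chance alone gives about 1 in 20, a rate that does not hold for genes chosen for a difference. All values are centred log2 RPM (reads per 1000000). Pax9, Dip2a, Bmp7 and Btaf1 were named for a call or a small p between the libraries numbered 18 and the others, so null 18 standing apart in them follows from that choice. Pax9 was at -2.49 in null 18, against -0.70 to -0.44 in the other null libraries. Dip2a was at 0.51 in null 18, against 0.89 to 0.96, and Bmp7, a BMP ligand, at 0.20, against 0.48 to 0.49. Btaf1 was at 2.38 in null 18, above the 2.09 to 2.10 of the others. The other 3 did not set null 18 apart. Hoxd4 was at 1.67 in null 22b, against 1.72 to 1.73 in the other null libraries, and Xist at 4.14 in null 22a, against 4.22 to 4.24. Trp63, a surface ectoderm factor, was at -0.20 in WT 21, against -0.06 to -0.01 in the other libraries numbered 21 or 22.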

How the results depend on the processing

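All 25 genes lay below 0 in all settings that tested them (24 of 24 against number 21 only and without X-linked genes, 17 of 17 with a mean log2 above 2). They were called as lower on these same values, so their sign is no separate support. The number called depended on the setting. It was 24 with the filter in 3 libraries or a floor of 3 reads, 23 with a mean above 2, 26 without X-linked genes and 20 with a robust prior, with none higher. It was 12 after quantile normalization, 1 (Oxct1) after cyclic loess and 9 with a pseudocount of 1. It was 0 with no filter, a prior without trend, no genotype term, the number as a numeric covariate, comparison with 21 only or 22 only, and voom (1068 lower and 1204 higher at an unadjusted p under 0.05). On the deposited scale, whose median change over all genes was -0.09 against 0.03, it was 437 lower and 17 higher, with 691 lower and 55 higher in wild-type, 35 and 12 in null and 153 for the difference between genotypes. Quantile normalization left 23 lower in wild-type. With the first number as a block it was 48 lower and 2 higher. Leaving out each library gave 0 to 151 lower and 0 to 6 higher, in wild-type 2 to 425 lower and 0 to 74 higher, in null 0 to 13 lower, and 0 to 33 for the difference between genotypes. The cause of these moves was not tested.

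Of the named genes, 11 changed sign, none of them called. On the deposited scale Atp5o was -0.0490, Malat1 -0.0132, Grb10 -0.0361, Cbx1 -0.0201, Cbx5 -0.0588, Smchd1 -0.0308 and Xist -0.0973. After cyclic loess Atp5o was -0.00154, Cbx5 -0.0130 and Xist -0.0553. Xist was -0.00127 with a mean above 2, -0.0203 against 21 only and -0.0260 with the first-number block, where Malat1 was -0.271. Hist1h2bc was 0.0833 after quantile normalization and Cdx4 0.0714 with no filter. Over the libraries left out, Gata1 ran from -2.45 to 0.80, Hist1h2bc from -0.95 to 0.14, Hist1h1c from -0.75 to 0.0043 and Malat1 from -0.0192 to 0.22. No paired analysis was possible because the columns carry no replicate number of the labels; the block on the first number groups columns by a number whose meaning is not given and pairs no labelled samples. The planned count tests were not run, since the table is not one of counts. Depth limits Hoxc12 and Hoxb13, and each genotype holds 1 library numbered 18.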

Other observations

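Housekeeping genes lay slightly above 0 as groups after centring. All 30 cytosolic ribosomal protein genes (median 0.15), all 22 cell cycle and replication genes (0.10) and all 21 oxidative phosphorylation genes (0.06) did so, beside 8227 of all 14212 genes tested and a median of 0.03, and none was called. On the deposited scale the medians of the last 2 lists were -0.02 and -0.06, so their direction depends on the scaling. Ccne1, the cyclin of entry into DNA replication, changed by 0.25 (limma adjusted p 0.123) and Rpl37 by 0.34 (limma adjusted p 0.149).

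In the list of 16 Eph receptors and ephrins and that of 17 genes for collagens, laminins, fibronectin and other matrix none was called with genotype in the model. Efna1, an ephrin, was called in wild-type, with a difference of -1.31 there and -0.17 in null (limma adjusted p 0.0230 in wild-type). Epha1, an Eph receptor, had 1693 reads in null 18 and 990 in WT 18, against 2178 to 3389 and 1934 to 2127 in the other libraries of each genotype, with a log2 change of -0.79 (limma adjusted p 0.0995), and it was called without null 22b (limma adjusted p 0.0453). The list of Eph receptors and ephrins had a median of -0.12 and that of collagens, laminins and fibronectin one of -0.13. The 22 glycolysis and hypoxia genes had a median of -0.05, and Egln3, a hypoxia-induced prolyl hydroxylase, was highest in null 21, at 1942 reads against 401 to 958 elsewhere. The 17 imprinted growth genes (median 0.03), the 16 p53 targets (0.02), the 4 nuclear noncoding RNAs (0.04), the 12 immediate early genes (-0.21), the 2 tested histone genes (-0.38) and Smchd1 with its partners (0.06) held no call either.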
